A study of Mus musculus with 8 samples.

Results

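DAXX loss was examined in J1 mouse embryonic stem cells, which keep their DNA methyltransferases, with 4 RNA-sequencing libraries of the 8 in the series. The 4 were J1 with DAXX intact and J1 with DAXX knocked out, each in regular medium (without inhibitors) and in the same medium with 2i and vitamin C, called 2i here. Cells were kept for 72 hours in PD0325901 (1 µM, against MEK), CHIR99021 (3 µM, against GSK3b) and 100 µg/ml of vitamin C. The other 4 libraries are the same 4 conditions in TKO cells, in which 3 DNA methyltransferases are knocked out, and are used for the spread in the fits and for a test of the difference. Libraries were chosen by their labels. The genotype label of the knockout libraries reads WT and their titles name the DAXX knockout, so the titles were followed. How the knockout was made, and whether the line is 1 clone, are not given in the sources used here. Each condition had 1 library, so a pair (knockout against intact in the same medium) has no replicate check of its own. The labels name no separate cultures, so p-values measure only the spread among these libraries.

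DAXX is a histone chaperone that works with ATRX to deposit the histone variant H3.3 at heterochromatin, including retroelements. Endogenous retroviruses are remnants of retroviral insertions. In embryonic stem cells they are held down by H3K9 methylation, placed by SETDB1 with the corepressor TRIM28 at sites that KRAB zinc-finger proteins bind, and by DNA methylation. Medium with 2i and vitamin C is known to lower DNA methylation in embryonic stem cells, through lower DNMT3 activity and through vitamin C as a cofactor of TET enzymes. LINE1 elements are non-LTR retrotransposons, of which the L1Md_A, L1Md_T and L1Md_Gf subfamilies are the young ones in the mouse.

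Library totals in J1 ranged from 67400000 to 91800000 reads. The 17857 listed repeat elements, of 65 families and each at least 5001 bp long, took 10.9% of the reads of the intact library and 11.1% of the knockout library in regular medium, against 8.56% and 15.2% in 2i. The knockout library in 2i thus had more reads in nearly every family, and the scaling matters in that pair. Over 11322 elements tested, the median log2 ratio was −0.05 in the regular pair and 0.43 in the 2i pair. Scaling by TMM (edgeR's trimmed mean of M-values) lowered the log2 ratios of the 2i pair by 0.50 and scaling to LINE1 reads lowered them by 0.56, and the regular pair moved up by 0.06 and 0.09. Both scalings rest on the repeat counts alone, so they also take out a shift that most repeats share. Assembled loci had a median log2 ratio of −0.02 in the regular pair and −0.08 in the 2i pair. Whether the shift in 2i belongs to the repeats or to the library was not tested. Assembled loci carry no gene names, so neither Daxx nor stem cell markers could be looked up, and the labels were taken as given.

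Among 44 families with a mean of at least 1 RPM (reads per 1000000 in the library), 23 were higher in the knockout in the regular pair and 43 in the 2i pair as deposited. Under TMM these counts were 26 and 23, and per LINE1 read 26 and 20. IAPEz-int, MMERVK10C-int, RLTR4_MM-int and MMERGLN-int, 4 retroviral families, were higher in both pairs under all 3 scalings and had the highest ratios in 1 pair or both. Of all 44, edgeR's quasi-likelihood test with Benjamini-Hochberg adjustment called 0 families (0.0% of those tested), with 4 at an unadjusted p under 0.05, 0 by limma and 1 by DESeq2. EdgeR called 2 families without J1 DAXX-knockout regular and 3 without either TKO DAXX-knockout library. IAPEz-int and MMERVK10C-int were past 2-fold in both pairs, which is 4.55% of the families tested.

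**Figure D1:**
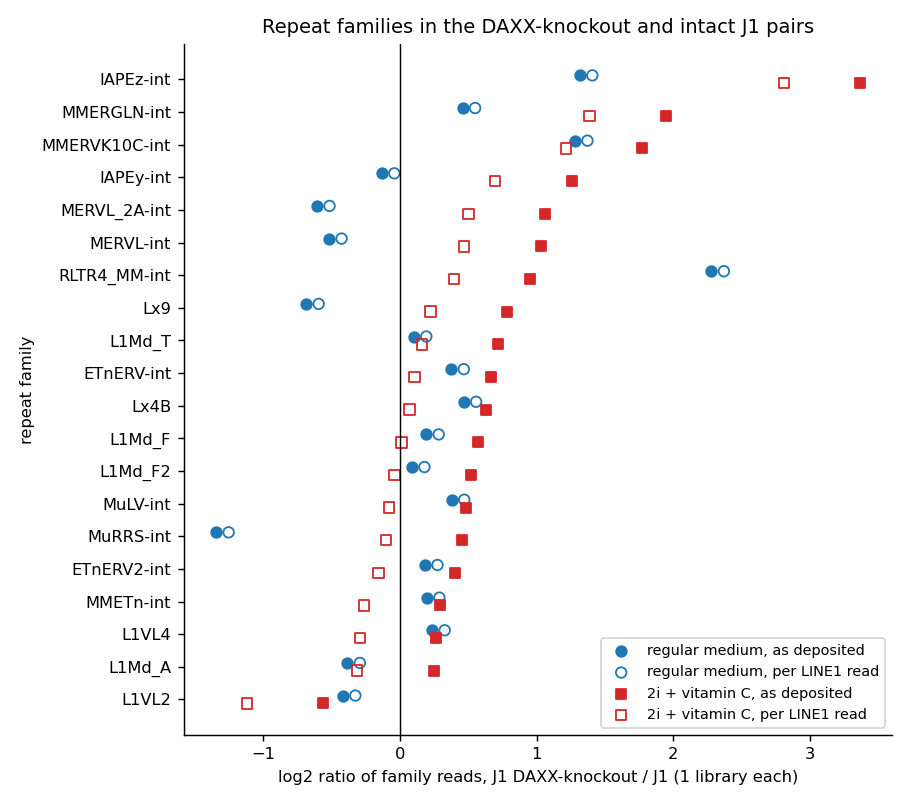
Log2 ratio of reads per family, J1 DAXX-knockout over J1, for the 20 families named by rule, with circles for the regular pair and squares for the 2i pair. Filled symbols are scaled by library totals and open symbols by LINE1 reads, and each symbol compares 1 library with 1 library. IAPEz-int reached 3.37 in 2i and RLTR4_MM-int 2.28 in regular medium, while per LINE1 read the LINE1 families in 2i lay between −0.31 and 0.22, apart from L1VL2 at −1.12.

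IAPEz-int, the coding body of intracisternal A-particle proviruses (ERVK retroviruses that still move in the mouse), had the highest ratio of the tested families in the 2i pair. In regular medium it was at 2061 RPM with DAXX intact and 5130 without, and in 2i at 3030 RPM with DAXX intact and 31233 without. The library with both DAXX loss and 2i stood far above the other 3. The ratio was 2.49 in the regular pair (95% exact interval 2.47 to 2.50) and 10.3 in the 2i pair (10.3 to 10.4). Such intervals cover counting error only. As a check within each library, IAPEz-int had 5.42% as many reads as L1Md_T in J1 regular and 12.6% in the knockout, and 8.32% in J1 2i and 52.0% in the knockout. Of the listed repeat reads, IAPEz-int took 1.90% and 4.60% in the regular pair and 3.54% and 20.5% in the 2i pair. In bulk RNA, more cells with the transcript and more transcript per cell cannot be told apart.

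The fitted log2 change of the IAPEz-int sum in J1 was 2.57, at an edgeR adjusted p of 0.179 after Benjamini-Hochberg adjustment and of 0.000461 in DESeq2. In a fit of the 4 J1 libraries alone it was 2.34 at an edgeR adjusted p of 0.0184, and over 14 alternatives the adjusted p ran from 0.000325 to 0.919. The fit over 8 libraries had 3 residual degrees of freedom, and leaving out J1 DAXX-knockout 2i gave a log2 change of 1.22. The adjusted p fell below the threshold when the regular knockout library of J1 (0.00124), the regular knockout library of TKO (0.000385) or the 2i knockout library of TKO (0.000325) was left out.

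MMERVK10C-int, another ERVK family, was the other family at least 2-fold higher in both pairs. It was at 225 RPM in J1 regular and 547 in the knockout, a ratio of 2.43 (95% exact interval 2.39 to 2.47). In 2i it was at 62.4 and 213 RPM, a ratio of 3.42 (3.31 to 3.54). Its level was lower in 2i than in regular medium in both genotypes, unlike that of IAPEz-int. The fitted log2 change was 1.55 at an edgeR adjusted p of 0.329 (Benjamini-Hochberg), and from 0.00761 to 0.995 over the alternatives.

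RLTR4_MM-int, an ERV1 family related to murine leukaemia virus, was at 921 RPM in J1 regular and 4466 in the knockout, and at 1276 and 2471 in the 2i pair. The ratios were 4.85 (95% exact interval 4.81 to 4.89) and 1.94 (1.92 to 1.95). It had the highest ratio of all tested families in regular medium. The fitted log2 change over both media was 1.55 at an edgeR adjusted p of 0.333 (Benjamini-Hochberg), and from 0.0098 to 0.995 over the alternatives.

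MMERGLN-int, an ERV1 family of gammaretroviruses, was at 230 RPM in J1 regular and 316 in the knockout, and at 717 and 2761 in the 2i pair. The ratios of 1.37 and 3.85 place most of its difference in 2i. Its fitted log2 change was 1.28, at an edgeR adjusted p of 0.333 and 0.0504 in DESeq2 (Benjamini-Hochberg), and from 0.0102 to 0.995 over the alternatives. Both knockout libraries were above the intact library of the same medium.

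MERVL-int, the internal part of an ERVL retrovirus that is active in 2-cell embryos and in rare 2-cell-like cells of stem cell cultures, had opposite signs in the 2 pairs. It was at 9185 RPM in J1 regular and 6417 in the knockout, and at 902 and 1842 in the 2i pair. The log2 ratios were −0.52 and 1.03 as deposited, and −0.43 and 0.47 per LINE1 read. MERVL_2A-int, a related ERVL family, was at 118 and 77.7 RPM in regular medium and at 11.5 and 23.9 in 2i. The third listed ERVL family was likewise lower in the regular pair and higher in the 2i pair. The opposite signs of MERVL-int and MERVL_2A-int held under all 3 scalings.

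Of the other families with opposite signs, those with the widest gap between the pairs were Lx9, MuRRS-int and IAPEy-int, all of low level. Lx9, an old LINE1 family, was at 2.07 and 1.29 RPM in the regular pair and at 1.25 and 2.15 in the 2i pair. IAPEy-int, of the IAP group, was at 0.664 and 0.606 RPM in the regular pair and at 1.28 and 3.05 in the 2i pair. Its regular pair rests on 51 and 48 reads, with an exact interval of the ratio from 0.602 to 1.38, so its sign there is not set at this depth. MuRRS-int, an ERV1 family related to murine leukaemia virus, had a log2 ratio of −1.34 in the regular pair and 0.46 in the 2i pair, the latter −0.04 under TMM and −0.10 per LINE1 read. Nearly all MuRRS-int reads (99.8% in the regular knockout library and 100% in the other 3 of J1) came from 1 element on chromosome 4, described with its neighbours further on.

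The difference between the media was tested as a DAXX by medium term over both backgrounds, since the 4 J1 libraries leave no residual for it. EdgeR with Benjamini-Hochberg adjustment called 0 of 44 families, with 4 at an unadjusted p under 0.05, 0 called by limma and 1 by DESeq2. It called 5 without J1 DAXX-knockout 2i, 3 without J1 DAXX-knockout regular and 1 without either TKO DAXX-knockout library. MERVL-int had a fitted difference (2i minus regular) of log2 2.03 and MERVL_2A-int of 2.07, each at an edgeR adjusted p of 0.246. For RLTR4_MM-int the difference was −1.70 at an edgeR adjusted p of 0.370, and under TMM it was the 1 family called, with an adjusted p of 0.0253. For IAPEz-int the term was 0.92 at an edgeR adjusted p of 0.997, so the larger ratio in 2i was not shown to differ over the 2 backgrounds.

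The ETn group, of early transposons and related proviruses, was abundant and differed little. ETnERV2-int was at 11784 and 13384 RPM in the regular pair and at 8853 and 11717 in the 2i pair. MMETn-int was at 9924 and 11381 RPM, and at 8225 and 10103 in 2i. Both were higher in the knockout in both pairs as deposited, with log2 ratios from 0.18 to 0.40, and lower in the 2i pair under TMM and per LINE1 read. ETnERV-int, with 2 elements, had log2 ratios of 0.38 and 0.67 and stayed above 0 under all 3 scalings. The ETn group as a whole was at 1.14 times the intact level in the regular pair and 1.28 times in the 2i pair.

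The 6 L1Md families as a group, the 3 young ones named in the background and L1Md_F, L1Md_F2 and L1Md_F3, were at 0.938 times the intact level in the regular pair and 1.47 times in the 2i pair. L1Md_A was at 31886 RPM in J1 regular and 24440 in the knockout, and at 22463 and 26667 in the 2i pair. Its log2 ratio was −0.38 in the regular pair and 0.25 in the 2i pair, the latter −0.25 under TMM and −0.31 per LINE1 read. L1Md_T was at 38055 and 40848 RPM in the regular pair and at 36410 and 60037 in the 2i pair. Its log2 ratios of 0.10 and 0.72 stayed above 0 under all 3 scalings (0.16 and 0.22 under TMM, 0.19 and 0.16 per LINE1 read). Within each pair L1Md_A was therefore lower relative to L1Md_T in the knockout. L1Md_F and L1Md_F2 had log2 ratios of 0.19 and 0.09 in the regular pair and 0.57 and 0.52 in the 2i pair, and L1Md_F2 was below 0 per LINE1 read in 2i (−0.04).

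Of the old LINE1 families named by rule, L1VL2 was the 1 family lower in both pairs as deposited, from 2.75 to 2.06 RPM and from 2.98 to 2.03 RPM. Lx4B was at 15.5 and 21.4 RPM and at 13.5 and 20.9 RPM, higher in the knockout in both pairs under all 3 scalings. In each J1 library 1 element held 76.7% to 98.0% of the L1VL2 reads, of 14 elements listed. For Lx4B 1 element of 19 listed held 89.1% to 98.2%. The values of both families thus rest mostly on 1 element in each library. L1VL4 (log2 0.24 and 0.27) was lower in the 2i pair under TMM and per LINE1 read. MuLV-int, endogenous murine leukaemia virus, had log2 ratios of 0.38 and 0.48, of which the second was −0.02 under TMM and −0.08 per LINE1 read. In edgeR's fit with Benjamini-Hochberg adjustment, these 4 families had adjusted p of 0.853 or more.

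TKO cells allow a test of whether the DAXX difference itself differs between the J1 and TKO backgrounds. In it, other differences between the lines cannot be told apart from loss of the DNA methyltransferases. In edgeR's DAXX by DNMT term with Benjamini-Hochberg adjustment 0 of 44 families were called, with 19 at an unadjusted p under 0.05, a lowest adjusted p of 0.110, 0 called by limma and 5 by DESeq2. Leaving out the regular knockout library of J1 gave 24 calls, that of TKO 12 and the 2i knockout library of TKO 6, all with a lower ratio in TKO as deposited. That direction did not hold under other scalings: the median term over families was −1.20 as deposited, 0.01 under TMM and 0.21 per LINE1 read, with 4 and 7 families under an unadjusted p of 0.05, and of DESeq2's 5 calls 3 were higher in TKO and 2 lower. As deposited, 14 families, 13 of them LINE, were higher in both J1 pairs and lower in both TKO pairs, or the reverse, and per LINE1 read 9 were. For IAPEz-int the log2 ratios were 1.24 and 1.03 in the TKO pairs, beside 1.32 and 3.37 in J1. The term (TKO minus J1) was −1.41 at an edgeR adjusted p of 0.229 as deposited, −0.07 under TMM (adjusted p 0.988) and 0.14 per LINE1 read (0.914), so its sign turned with the scaling. Per LINE1 read the TKO log2 ratios of IAPEz-int were 2.30 and 2.32, beside 1.41 and 2.81 in J1. For MMERGLN-int the TKO ratios were −0.57 and −0.50, beside 0.46 and 1.95 in J1, at an edgeR adjusted p of 0.110 for the difference. Per LINE1 read the TKO ratios of MMERGLN-int were 0.49 and 0.80, above 0 as in J1.

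Single elements were then examined, each with at least 0.1 RPKM (RPM per kilobase of element) on average. EdgeR with Benjamini-Hochberg adjustment called 884 of 11322 elements higher (7.81%) and 2 lower (0.0177%) in the J1 knockout. IAPEz-int copies made up 90.2% of those called higher, 797 of the 804 tested and of the 830 listed. The other 87 were 34 of 75 MMERVK10C-int, 16 of 45 RLTR4_MM-int, 13 of 939 L1Md_F2, 8 of 56 MMERGLN-int, 4 of 4951 L1Md_T and 12 elements of other families. No L1Md_A copy of 3065 and no MERVL-int copy of 575 was called. Copies of a family share sequence, and how reads that map to several copies were treated is not given in the sources used here, so copies were not taken as independent measurements. The count of calls in either direction was 503 under TMM, 11 without J1 regular, 0 without J1 2i, 274 without the 2i knockout library of J1 and 3003 without its regular knockout library.

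A plain rule of 2-fold in both pairs, on log2(RPKM + 0.1), which understates folds of low elements, was met by 619 elements in the higher direction (5.47%) and 1 in the lower (0.00883%). With 1 RPKM added in place of 0.1, 24 were. The 619 included 553 IAPEz-int, 43 MMERVK10C-int and 16 RLTR4_MM-int copies. In the regular pair alone 657 elements were past 2-fold higher (5.8%), and in the 2i pair 1477 (13.0%). As deposited, those past it in 2i included 288 L1Md_T, 179 MERVL-int and 46 MMERGLN-int copies, against 3, 0 and 0 in regular medium. Under TMM, an alternative added after the data were seen, the 2i count was 922, with 5 L1Md_T, 7 MERVL-int and 39 MMERGLN-int copies, and per LINE1 read it was 911, with 5, 6 and 38. IAPEz-int kept 801 or more copies past 2-fold in 2i under each scaling.

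**Figure D2:**
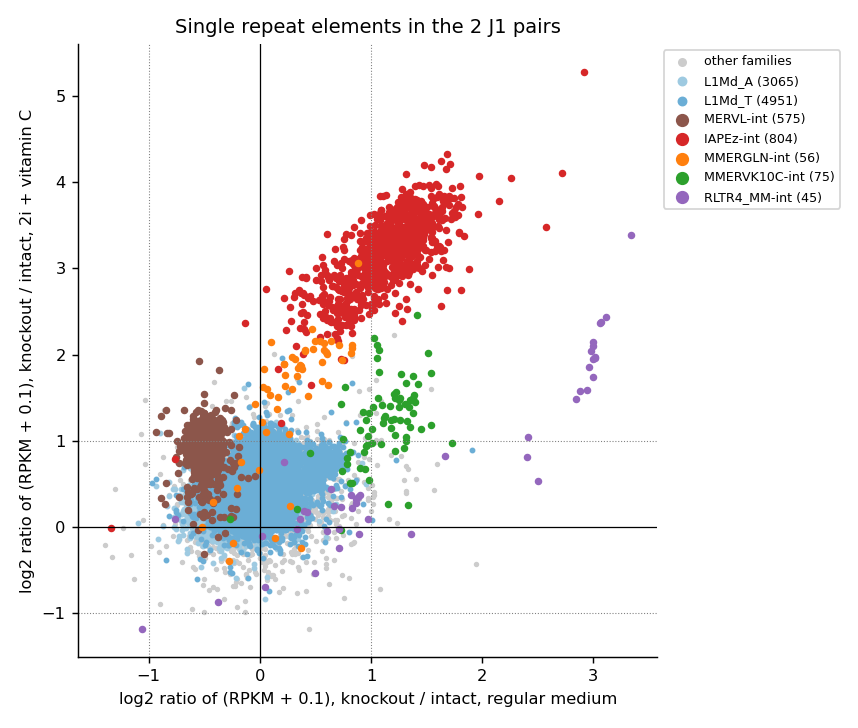
Each point is 1 of 11322 repeat elements, with the log2 ratio of (RPKM + 0.1) of the regular pair on the horizontal axis and of the 2i pair on the vertical axis. Dotted lines mark 2-fold. IAPEz-int copies form 1 cloud around their medians of 1.19 and 3.21, MERVL-int copies lie left of 0 and mostly above 0 on the vertical axis, and RLTR4_MM-int copies fall into separate groups.

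IAPEz-int copies were higher nearly throughout. The median copy was at 0.283 RPKM in J1 regular, 0.833 in J1 DAXX-knockout regular, 0.431 in J1 2i and 5.25 in J1 DAXX-knockout 2i. Of 804 copies, 801 were higher in the knockout in both pairs. Across copies the log2 ratios had an SD of 0.37 in the regular pair and 0.46 in the 2i pair. The Spearman correlation between the pairs was 0.72 over 804 copies, which share sequence and the 4 libraries. On the 20 chromosomes with at least 9 copies, the median ranged from 1.00 to 1.27 in the regular pair and from 2.90 to 3.36 in the 2i pair.

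Annotated length went with a modest difference among IAPEz-int copies, in bins chosen after the values were seen and so given with no test. The 245 copies of 6300 to 6399 bp had medians of 1.32 and 3.48 in the 2 pairs. The 527 copies of 6400 bp and over had 1.08 and 3.07, and the 32 shorter copies 0.96 and 2.80. In the same order the median levels in J1 regular were 0.337, 0.252 and 0.241 RPKM. The added 0.1 RPKM lowers ratios more at low levels, and its part in the difference between the classes was not tested. The shorter class was also at a lower level in the knockout in 2i, 2.51 RPKM at the median against 7.09 in the class of 6300 to 6399 bp.

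Of the called IAPEz-int copies, the 1 with the largest fitted change lies on mm9 chromosome 4 from 116865083 to 116871463. It was at 0.434 RPKM in J1 regular and 3.92 in the knockout, and at 0.616 in J1 2i and 27.7 in the knockout. This is a ratio of 9.03 in regular medium and 45.0 in 2i, beside 2.49 and 10.3 for the family, and the fitted fold was 24.6 at an edgeR adjusted p of 4.91e-09 (Benjamini-Hochberg). The next copy by fitted change lies on chromosome 6 from 102523321 to 102529799. It went from 0.229 to 2.06 RPKM in regular medium and from 0.444 to 9.30 in 2i, at an edgeR adjusted p of 3.72e-08. Further called copies with large changes were on chromosomes 5 and 6, with fitted folds of 13.2 and 13.1. The fifth, on chromosome 4, was at 0.232 RPKM or below in all 4 libraries. It had 6 and 24 reads in the regular pair and 2 and 110 in the 2i pair. Its mean met the filter of 0.1 RPKM only through the knockout libraries, so its call is not independent of the filter. Whether these copies lie in genes was not analysed here, for want of an mm9 annotation.

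The 2 IAPEz-int copies with the lowest ratios, in either pair, lay together on distal chromosome 4. The copy from 146841760 to 146847069 was at 4.47 RPKM in J1 regular and 1.71 in the knockout, and at 3.05 and 3.04 in the 2i pair. It was the most highly expressed of all IAPEz-int copies in J1 regular. A second copy, from 146577048 to 146583506, was at 4.26 and 2.48 RPKM in regular medium and at 2.90 and 5.08 in 2i. Neither was called, with adjusted p of 1.00 in edgeR (Benjamini-Hochberg).

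Elements of other families around them shared the regular-medium pattern. Within 2 Mb of the first copy, a window chosen after the values were seen and so given with no test, 12 of 15 tested elements were lower in the regular pair, with a median log2 ratio of −0.63. Of all tested elements 56.3% were lower in that pair. The 12 include the pair of IAPEz-int copies that set the window and a MERVL-int copy, a family lower throughout in regular medium, and without these 3 elements 9 of 12 were lower, with a median of −0.55. Among LTR elements 8 of 10 were lower in the window, and 5 of 7 without these 3. Of all tested LTR elements 37.3% were lower in that pair. In the 2i pair the median was 0.36, close to that of all elements, and 2 of the 10 LTR elements were lower. The MuRRS-int element there, from 146099759 to 146105436, was at 5.28 and 2.08 RPKM in the regular pair and at 2.15 and 2.95 in the 2i pair. An L1Md_F2 copy beside the first IAPEz-int copy, from 146874224 to 146880318, was at 3.86 and 1.58 RPKM and at 2.55 and 2.53 RPKM. The 46 assembled loci in this window had median log2 ratios of −0.25 and 0.12. An IAPEz-int copy of the same window, from 147207962 to 147214418, was called higher, at 0.754 and 1.26 RPKM and at 0.825 and 7.75 RPKM, at an edgeR adjusted p of 0.000701 (Benjamini-Hochberg).

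RLTR4_MM-int copies fell into groups with different ratios. All 45 listed copies were tested. Grouped by annotated length (clusters of at least 10 copies separated by gaps of 5 bp or more, chosen after the values were seen and so given with no test), 10 copies of 7557 to 7560 bp stood apart from 17 copies of 7586 to 7588 bp. The shorter ones had median log2 ratios of 3.02 in the regular pair and 2.06 in the 2i pair, with no copy below 2.41 in regular medium. The longer ones had 0.67 and 0.23, with no copy above 1.66 in regular medium. In the 2i pair the ratios of the groups touched, from 0.81 in the shorter and up to 0.83 in the longer. The other 18 copies, of 5509 to 7579 bp, ran from −0.76 to 3.00 in the regular pair, with 9 past 2-fold higher. Among them, copies of the same length of 5695 bp were at 0.49, 2.41 and 2.95, so length did not part the copies outside these groups.

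In J1 regular the levels of the groups overlapped, with medians of 3.85 and 2.23 RPKM. In J1 DAXX-knockout regular they were at 32.5 and 3.45 RPKM, and their ranges did not overlap (10.8 to 77.9 against 0.905 to 6.92). In the 2i pair the shorter group went from 3.07 to 13.7 RPKM and the longer from 3.74 to 4.64 at the median, with overlapping ranges in the knockout (5.74 to 30.9 against 1.20 to 6.02). The shorter group took 32.7% of the family's reads in J1 regular and 57.6% in the knockout, while the longer took 32.0% and 10.5%. Of the 16 copies called higher in edgeR, 9 were in the shorter group, 0 in the longer and 7 among the other 18.

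The same groups did not part in TKO cells. There the median log2 ratios of the shorter and longer groups were 1.69 and 1.71 in the regular pair and −0.11 and −0.21 in the 2i pair. In TKO DAXX-knockout regular their medians were 17.0 and 18.5 RPKM. The difference of this split between J1 and TKO was not tested.

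**Figure D3:**
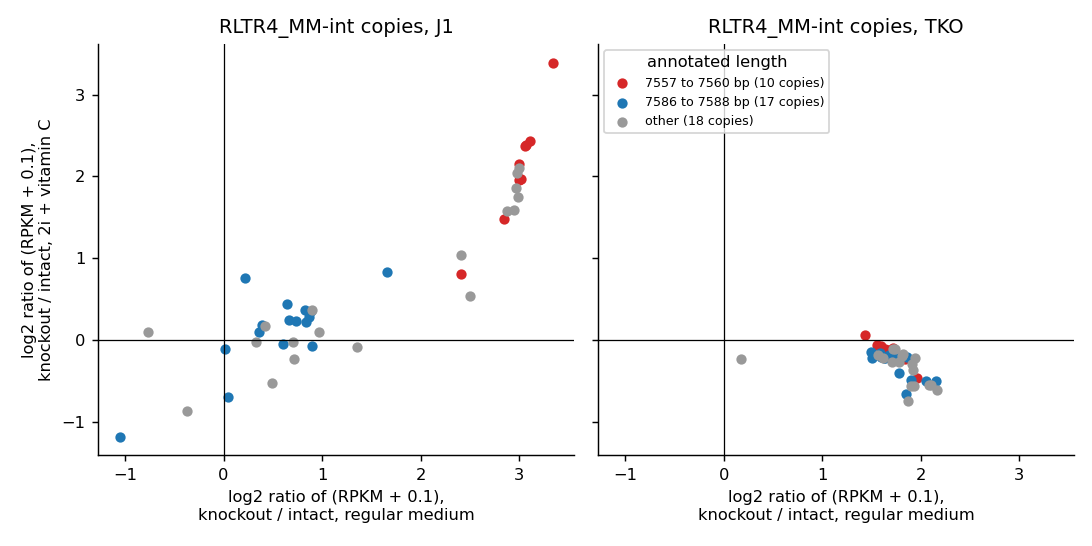
Log2 ratio of (RPKM + 0.1) of the 45 RLTR4_MM-int copies, knockout over intact, in the regular pair (horizontal) and the 2i pair (vertical), with J1 on the left and TKO on the right, coloured by annotated length. In J1 the 10 copies of 7557 to 7560 bp lie at 2.41 or more on the horizontal axis and the 17 copies of 7586 to 7588 bp at 1.66 or less, while in TKO the groups overlie each other.

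The RLTR4_MM-int copy with the largest change lies on chromosome 2 from 15942863 to 15950422. It was at 7.60 RPKM in J1 regular, 77.9 in the knockout, 2.86 in J1 2i and 30.9 in the knockout. It rose 10.5-fold in the fit, at an edgeR adjusted p of 2.32e-07 (Benjamini-Hochberg), and its ratio was alike in both media, 10.3 and 10.8. In TKO its log2 ratios were 1.43 and 0.06. The copy on chromosome 11 from 76363053 to 76370611 went from 3.87 to 34.2 RPKM and from 2.56 to 14.3 RPKM, with an adjusted p of 3.03e-05. A copy of the longer group, on chromosome 7 from 7023319 to 7030906, was the 1 element past 2-fold lower in both pairs, at 1.99 and 0.905 RPKM and at 10.4 and 4.55 RPKM, at an edgeR adjusted p of 0.286.

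MMERVK10C-int copies were higher in both media. The 75 tested copies of 99 listed had medians of 1.13 and 1.24 in log2 ratio, and 73 were higher in both pairs. The copy with the highest level in the regular knockout, on chromosome 8 from 3946330 to 3951359, was at 3.60 and 9.54 RPKM in the regular pair and at 1.32 and 3.92 in the 2i pair. Its adjusted p was 0.0848 in edgeR (Benjamini-Hochberg), above the threshold, with ratios of 2.65 and 2.96 beside 2.43 and 3.42 for the family.

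MMERGLN-int copies differed more in 2i. The 56 tested copies of 88 listed had medians of 0.30 in the regular pair and 1.80 in the 2i pair, and their log2 ratios were spread more in 2i (SD 0.75 against 0.33). The copy with the highest ratio in 2i, on chromosome 10 from 26647208 to 26654754, was at 0.964 and 1.86 RPKM in the regular pair and at 3.49 and 30.0 in the 2i pair. It was called higher at an edgeR adjusted p of 0.000210 (Benjamini-Hochberg). In TKO 2i, without DAXX loss, the same copy was at 59.5 RPKM.

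MERVL-int copies were close to one another. All 575 tested copies were lower in the knockout in the regular pair, with log2 ratios from −0.93 to −0.04, and 571 were higher in the 2i pair. The SD across copies was 0.11 in regular medium and 0.27 in 2i, and the ratios of a copy in the pairs had a Spearman correlation of −0.01 (over 575 copies, which share the 4 libraries).

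L1Md_T copies formed a double-peaked distribution in 2i. In the regular pair the 4951 copies had a median log2 ratio of 0.03, with quartiles of −0.10 and 0.15, and a small shoulder of 146 copies from 0.5 to 0.6. In the 2i pair the quartiles were 0.26 and 0.85. Counted in steps of 0.1, there were 452 copies from 0.1 to 0.2, then 287 from 0.5 to 0.6, and 725 from 0.8 to 0.9. Under TMM the 2i ratios are lower by 0.50, which puts the lower peak below 0 and the higher one above. The TKO pairs had quartiles of −1.14 and −0.88 in regular medium and −1.21 and −0.94 in 2i. Their spread was less than in the J1 2i pair but not less than in the J1 regular pair.

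**Figure D4:**
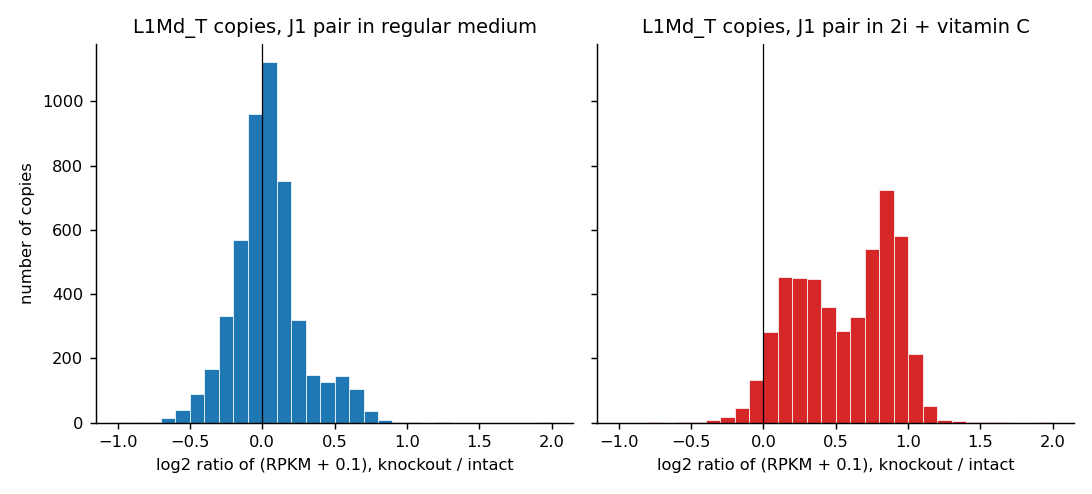
Number of L1Md_T copies by log2 ratio of (RPKM + 0.1), knockout over intact, in steps of 0.1, for the regular pair (left) and the 2i pair (right), with 4951 copies in each. In regular medium 1 main peak lies between 0 and 0.1, while in 2i a peak between 0.1 and 0.4 and a higher one between 0.8 and 0.9 are separated by a dip at 0.5 to 0.6. Ratios are scaled by library totals, and TMM would lower those in 2i by 0.50.

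Median ratios in 2i differed among classes of annotated length, in bins chosen after the values were seen and given with no test. Whether these classes make up the peaks was not tested. In the 2i pair the median log2 ratio was 0.83 for the 807 copies of 6500 bp and over and 0.76 for the 692 copies of 5500 to 5999 bp. It was 0.47 for the 1777 copies of 6000 to 6499 bp and 0.48 for the 1675 under 5500 bp. Median levels in J1 2i, in the same order of classes, were 1.62, 1.59, 0.757 and 0.890 RPKM. In the regular pair the median log2 ratios of the same 4 classes were between 0.01 and 0.04. L1Md_Gf, another young subfamily, had a median of 0.77 over its 113 tested copies in 2i and 0.04 in regular medium.

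The 2 elements called lower were LINE1 copies of low level. L1_Mus1 on chromosome 8 from 4756081 to 4762072 had 65 and 14 reads in the regular pair and 93 and 43 in the 2i pair, and fell to 0.287 of the intact level in the fit, at an edgeR adjusted p of 0.0293 (Benjamini-Hochberg). It was at 0.0781 RPKM or below in every knockout library of J1 and TKO. It met the filter of 0.1 RPKM only through the DAXX-intact libraries, so its call is not independent of the filter. L1Md_F2 on chromosome 3 from 55001776 to 55008150 had 84 and 12 reads in the regular pair and 209 and 168 in the 2i pair, with an adjusted p of 0.0114. Both were below the intact library in each medium.

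Assembled loci gave a view beyond the repeats. The authors assembled transcripts in each library separately, without gene names, and loci were matched by position (50% reciprocal overlap). Of 41473 groups of loci, 11051 were assembled in all 4 J1 libraries, 10838 of them with exactly 1 locus in each library, and of these 10594 had a mean FPKM (the like value for fragments, as the assembler estimates it) of at least 1. Limma on log2(FPKM + 1) with Benjamini-Hochberg adjustment called 0 loci (0.0%), with 888 at an unadjusted p under 0.05 and a lowest adjusted p of 0.236. This fit had 1 residual degree of freedom. Past 2-fold in both pairs were 49 loci in the higher direction (0.463%) and 49 in the lower (0.463%), and 53 were past it in opposite directions.

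Agreement between the pairs was weak. Over the 10594 loci the Pearson correlation of the log2 ratios was 0.15, and 55.0% had the same sign in both pairs, with all loci sharing the same 4 libraries. The authors' FPKM intervals for knockout and intact did not overlap in the same direction in both pairs for 844 loci higher (7.97%) and 1125 lower (10.6%), and in opposite directions for 1207. These intervals describe 1 library each, not replicates.

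**Figure D5:**
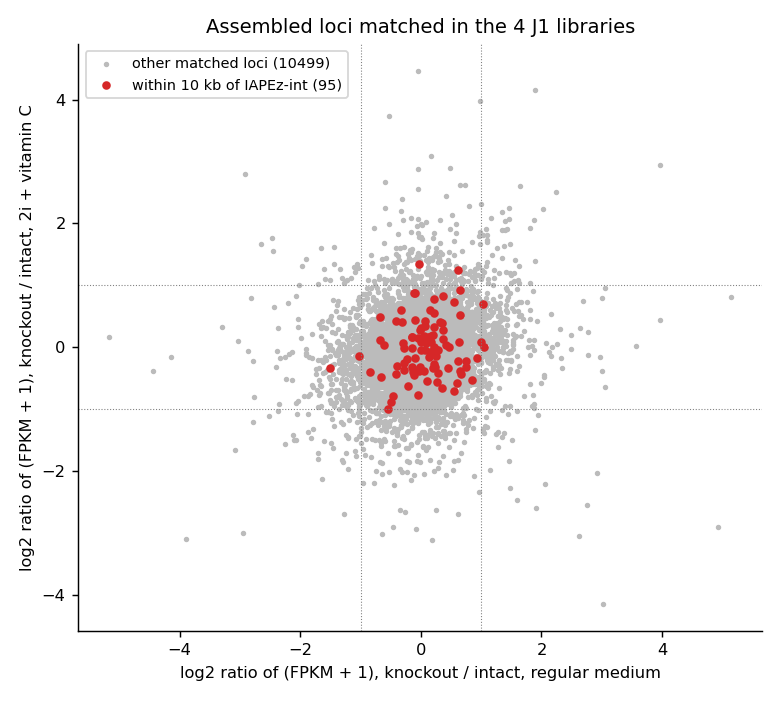
Log2 ratio of (FPKM + 1) of 10594 loci matched in the 4 J1 libraries, with the regular pair on the horizontal and the 2i pair on the vertical axis, and loci that overlap or lie within 10 kb of an IAPEz-int element in red. Dotted lines mark 2-fold, and no red point lies beyond it in the same direction in both pairs.

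The locus with the lowest ratios in both pairs, by the smaller of the log2 ratios, lies on mm9 chromosome 6 from 39542302 to 39552208. It was at 96.8 FPKM in J1 regular and 5.58 in the knockout, and at 71.3 and 7.42 in the 2i pair. A second, on chromosome 6 from 83004509 to 83017206, was at 14.2 and 0.951 FPKM and at 16.1 and 1.15 FPKM. In both loci each knockout library was below each intact library, and the adjusted p was 0.236 in limma (Benjamini-Hochberg).

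In the other direction, a locus on chromosome 10 from 41773121 to 41773425 was at 114 and 1803 FPKM in the regular pair and at 4.02 and 37.7 in the 2i pair. A locus on chromosome 15 from 79749737 to 79749913 was at 350 and 1649 FPKM and at 254 and 1444 FPKM. Both are short, with spans of 304 and 176 bp, and their adjusted p were 0.242 and 0.395 in limma (Benjamini-Hochberg).

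Loci near IAPEz-int elements were close to the median of all loci. The 50 loci that overlap an IAPEz-int element had median log2 ratios of 0.12 in the regular pair and −0.01 in the 2i pair, and the 45 within 10 kb had 0.07 and −0.02. The median of all loci was −0.02 and −0.08. None of either group was past 2-fold in both pairs in the same direction, against 0.463% of all loci in each direction. The 63 loci that overlap a MERVL-int element had medians of −0.04 and −0.13, with 0 past 2-fold in both pairs. The 5 that overlap MMERVK10C-int and the 8 that overlap RLTR4_MM-int were too few to describe as groups.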

How the data were processed

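Cytoplasmic RNA was bound to oligo-dT beads and made into strand-marked (dUTP) libraries, per the labels' protocols. The submitters' processing notes name TopHat, Bowtie2 2.2.4, Cufflinks, Cuffdiff and mm9. The authors deposited read counts and RPKM for each repeat element, and FPKM with an interval for each locus assembled per library. How multi-mapping reads were treated is not given in the sources used here.

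Library totals were recovered from counts, RPKM and length. Counts were summed by family and tested in edgeR 4.0.16 (quasi-likelihood, R 4.3.3) over 8 libraries with terms for medium, DNMT and DAXX within each background. DESeq2 1.42.0 and limma 3.58.1 were alternatives, and loci used limma on 4 libraries. Filters were means of 1 RPM, 0.1 RPKM and 1 FPKM, and the threshold was an adjusted p of 0.05. The tests were first run on simulated data. Families were named by up to 10 same-sign ratios each way, 5 opposite-sign gaps and a 1% share of listed reads. Elements were named by the 5 largest called changes each way, the 2 most changed copies outside IAPEz-int, and extremes of single families; the last were chosen after their values were seen. Loci were named as the 2 most changed each way. Members and lists were chosen with earlier results of these data known.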

Additional observations from a re-analysis of the deposited data

How the results depend on the processing

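No paired analysis was possible because each group has 1 library and all share 1 replicate number. Knockout and intact libraries were matched by medium, which was a term in the fits. Families called in J1 numbered 0 in edgeR, 1 in DESeq2, 1 with the 4 J1 libraries alone, and 0 to 3 when 1 library was left out. Elements called numbered 886, with 503 under TMM and from 0 (without J1 2i) to 3003 (without J1 DAXX-knockout regular) when 1 library was left out. For the DAXX by DNMT difference DESeq2 called 5 families and leaving out 1 library gave 0 to 24. For the DAXX by medium difference TMM called 1, DESeq2 called 1, and leaving out 1 library gave 0 to 5. Elements past 2-fold in both pairs numbered 620, and 24 with 1 RPKM added. Those past 2-fold higher in the 2i pair numbered 1477, with 922 under TMM and 911 under LINE1 scaling. Loci past 2-fold in both pairs numbered 98, with 154 at a pseudocount of 0.1 FPKM (65 higher and 89 lower) and 60 at 80% overlap (29 and 31). Median centring gave 57 higher and 41 lower, against 49 and 49. The causes were not tested. Loci called stayed at 0 in the 5 alternatives run. Of 280 alternative values of the 20 named families, 245 kept sign and side of the threshold, 10 passed it and 25 changed sign without passing it. A family at 3 reads in a J1 library would be at 0.0327 to 0.0445 RPM.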

Other observations

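IAPEY3-int, an IAP family outside the naming rule and picked after its values were seen, was at 108 RPM with DAXX intact and 200 without in regular medium, and at 20.5 RPM with DAXX intact in 2i. Its log2 ratio of 0.89 in the regular pair stood beside 0.04 in the 2i pair, and the latter was −0.46 under TMM and −0.52 per LINE1 read. GSAT_MM, the major satellite and the 1 satellite family tested, was at 94.8 and 74.9 RPM in the regular pair and at 33.9 and 43.6 RPM in the 2i pair. All its reads in J1 came from 1 of the 12 listed elements, so the values do not describe the satellite as a whole. The log2 ratio of 0.36 in the 2i pair was −0.14 under TMM and −0.20 per LINE1 read.

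Some loci were assembled in 1 genotype only. Of 41473 groups of loci, 684 were assembled in both knockout libraries and neither intact library, and 852 in both intact and neither knockout library. Of the former 23 (3.36%) overlapped a listed repeat element and of the latter 20 (2.35%), beside 4.69% of the 10594 tested loci. These shares are not comparable by length, since the median spans were 1882 and 1640 bp against 20469 bp for the tested loci. An IAPEz-int element was overlapped by 1 locus of each set. Most were of low level, with median FPKM of 1.22 in J1 DAXX-knockout regular for the former and 1.31 in J1 regular for the latter. Library pairs that share neither genotype nor medium had similar counts. There were 729 groups in J1 regular and J1 DAXX-knockout 2i only, and 602 in J1 2i and J1 DAXX-knockout regular only. The 684 and 852 were thus not shown to be particular to a genotype.

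Single copies of families that differed little or held few copies were also called higher by edgeR (Benjamini-Hochberg), and the following pair was picked after its values were seen. An IAP-d-int element on mm9 chromosome 9 from 59218301 to 59223373 was at 0.0359 and 0.214 RPKM in the regular pair and at 0.0322 and 0.522 in the 2i pair, with an adjusted p of 2.75e-07 in edgeR. An ETnERV2-int element on chromosome 13 from 7169216 to 7174539 was at 0.0269 and 0.126 RPKM and at 0.0139 and 0.350 RPKM, with an adjusted p of 2.33e-05 in edgeR. This ETnERV2-int element was at 0.0764 RPKM or below in every DAXX-intact library of J1 and TKO. It met the filter of 0.1 RPKM only through the knockout libraries, so its call is not independent of the filter.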
